A study of Mus musculus with 12 samples.

Results

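The FOS and JUN genes encode the subunits of AP-1, a dimeric transcription factor with a basic leucine zipper (bZIP). FOS proteins bind DNA only as partners of a JUN protein, whereas JUN proteins can also pair with each other and with the ATF, BATF and MAF proteins. In T cells, T cell receptor signals reach these genes through protein kinase C, the MAP kinases and calcium, and AP-1 binds next to NFAT at cytokine genes such as *Il2* and *Csf2*. *Fos*, *Fosb*, *Jun* and *Junb* are known as immediate-early genes, which are transcribed within minutes of a signal without new protein synthesis. *Jund* is known as the JUN gene that is expressed in most resting cells.

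All 7 FOS and JUN genes were followed here, *Fos*, *Fosb*, *Fosl1*, *Fosl2*, *Jun*, *Junb* and *Jund*, out of 24439 gene names measured by RNA-Seq. They were chosen by name, and all 7 passed the filter on low values, which kept 12442 genes. The cells were CD4 T cells from the spleens of C42 mice (strain C57BL/6 C42 in the labels, back-crossed to C57BL/6J in the methods) that carry a fragment of the human IL3 and CSF2 locus as a transgene, so every group carries it. They were activated with 2 µg/ml concanavalin A (ConA) for 40 h and then cultured as T blast cells with 50 U/ml IL-2, for 30 h in the study's methods and 2 days in the labels. For a last 16 h they were then either kept in IL-2 (TB IL-2) or washed and left without it (TB IL-2nil). TB+ IL-2 and TB+ IL-2nil are the same cells after 2 h of 20 ng/ml phorbol 12-myristate 13-acetate and 2 µM calcium ionophore (PMA/I), which bypass the T cell receptor. The methods do not say whether the medium held IL-2 during these 2 h. For stimulated cells, with IL-2 or in IL-2 thus means kept in it until PMA/I. Each group has 3 libraries, numbered 1 to 3, and ages of the mice are not given in the sources used here. Neither the labels nor the methods say whether the cultures of a group came from separate animals, so P-values measure only the spread between these samples.

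Labels and data went against each other in 2 libraries. The study's own per-library values place the library labelled TB IL-2nil replicate 3 in TB+ IL-2 and the library labelled TB+ IL-2 replicate 3 in TB IL-2nil. Groups below follow that placement, and results are also given with the 2 libraries as labelled and with both left out. As labelled, 0 of the 7 genes passed the test in any comparison (limma, adjusted P under 0.05), while 7 had an unadjusted P under 0.05 for TB+ IL-2nil against TB IL-2nil, 2 for TB+ IL-2 against TB IL-2 and 1 for the interaction. Of all 12442 genes, 4017, 1739 and 413 had such an unadjusted P, in the same order. The genes that passed the test as labelled were 239 higher and 430 lower, 30 higher and 32 lower, and 0 in either direction.

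Levels are in TPM, a share of all transcripts corrected for gene length, with each library scaled to a common 75th percentile. Differences are on the scale of log2(TPM + 1), a scale that shrinks the changes of lowly expressed genes. The depth of the libraries relative to each other ran from 0.409 to 1.246, a ratio of 3.05, and the read counts are not known. Short non-coding RNAs took 16.6% to 53.2% of the deposited values of a library. Summed over 6 T cell markers, including *Cd3e* and *Cd4*, the libraries held 1715 to 2412 TPM. Summed over *Cd79a*, *Cd79b* and *Ms4a1*, which mark B cells, TB IL-2 held 5.05 to 9.74 TPM, TB IL-2nil 20.4 to 26.6 TPM, TB+ IL-2 2.09 to 2.81 TPM and TB+ IL-2nil 4.74 to 12.1 TPM, with none of the 3 at 0 in all libraries of a group. *Cd8a* and *Cd8b1* together held 6.91 to 31.9 TPM, 5 myeloid markers at most 4.88 TPM and 3 NK cell markers at most 0.303 TPM, and 1 or 2 of the NK cell markers were listed at 0 in all libraries of each group. In bulk RNA, fewer cells of a type and less RNA per cell cannot be told apart.

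In the mm9 build (GENCODE M1 gene models), *Fos* lies on chromosome 12 from 86814840 to 86818223 (+), *Fosb* on chromosome 7 from 19888070 to 19895394 (-), *Fosl1* on chromosome 19 from 5447703 to 5455945 (+) and *Fosl2* on chromosome 5 from 32438845 to 32460204 (+). *Jun* lies on chromosome 4 from 94715725 to 94718913 (-), and *Junb* and *Jund* both lie on chromosome 8, from 87500811 to 87502617 (-) and from 73221638 to 73224515 (+). *Jund* has a second transcript in these models, from 73222857 to 73224514. The values are 1 per gene, over all its transcripts.

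The promoters of *Fos* and *Jun*, the founding gene of each family, are printed to show which short elements they hold. Below are the 250 bases before the RefSeq start on GRCm38.p6, 5′ to 3′, for *Fos* at chr12:85473640-85473889 (+) and for *Jun* at chr4:95052223-95052472 (-). Capitals mark the TATA box, written TATAAA, the Sp1 box, written GGGCGG and read as its complement where it lies on the other strand, a core of the cyclic AMP response element, written TGACGT, and a variant AP-1 or ATF site, written TGACATCA.
Fos: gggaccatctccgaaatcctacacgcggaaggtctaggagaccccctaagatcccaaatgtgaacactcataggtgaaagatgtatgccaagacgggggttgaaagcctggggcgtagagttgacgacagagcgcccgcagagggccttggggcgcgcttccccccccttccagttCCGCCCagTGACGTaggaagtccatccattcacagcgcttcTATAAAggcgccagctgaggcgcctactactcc
Jun: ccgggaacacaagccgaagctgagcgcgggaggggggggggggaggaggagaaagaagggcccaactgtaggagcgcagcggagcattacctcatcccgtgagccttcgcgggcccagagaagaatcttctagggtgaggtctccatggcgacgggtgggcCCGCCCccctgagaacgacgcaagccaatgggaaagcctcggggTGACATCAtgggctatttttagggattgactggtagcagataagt
*Fos* held the TATA box 33 to 28 bases before the start and the cyclic AMP core 66 to 61 bases before it, and *Jun* held the variant site 45 to 38 bases before its start. Promoters were found for 6 of the 7 genes, all but *Fosl1*, and searched on both strands. GGGCGG was in 4 of the 6 and in 32.9% of 27025 mouse promoters of the same length. The TATA box, the cyclic AMP core and the variant AP-1 or ATF site were each in 1 of the 6, and in 13%, 6.56% and 3.02% of all promoters, the latter pair searched after the windows had been read. The usual AP-1 site, written TGANTCA, was in 0 of the 6 and in 6.87% of all promoters. The full cyclic AMP element, written TGACGTCA and overlapping its core, was in 0 of the 6 and in 1.62%. The STAT site, written TTCNNNGAA, was in 0 of the 6 and in 7.18%, and the CArG box of serum response factor in 0 of the 6 and in 1.4%. The NFAT core, written GGAAA, was in 1 of the 6 and in 55.6%. These are matches of letters, and binding was not measured in these data. Sites outside these 250 bases were not searched, so a count of 0 holds for this window only.

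**Figure D1:**
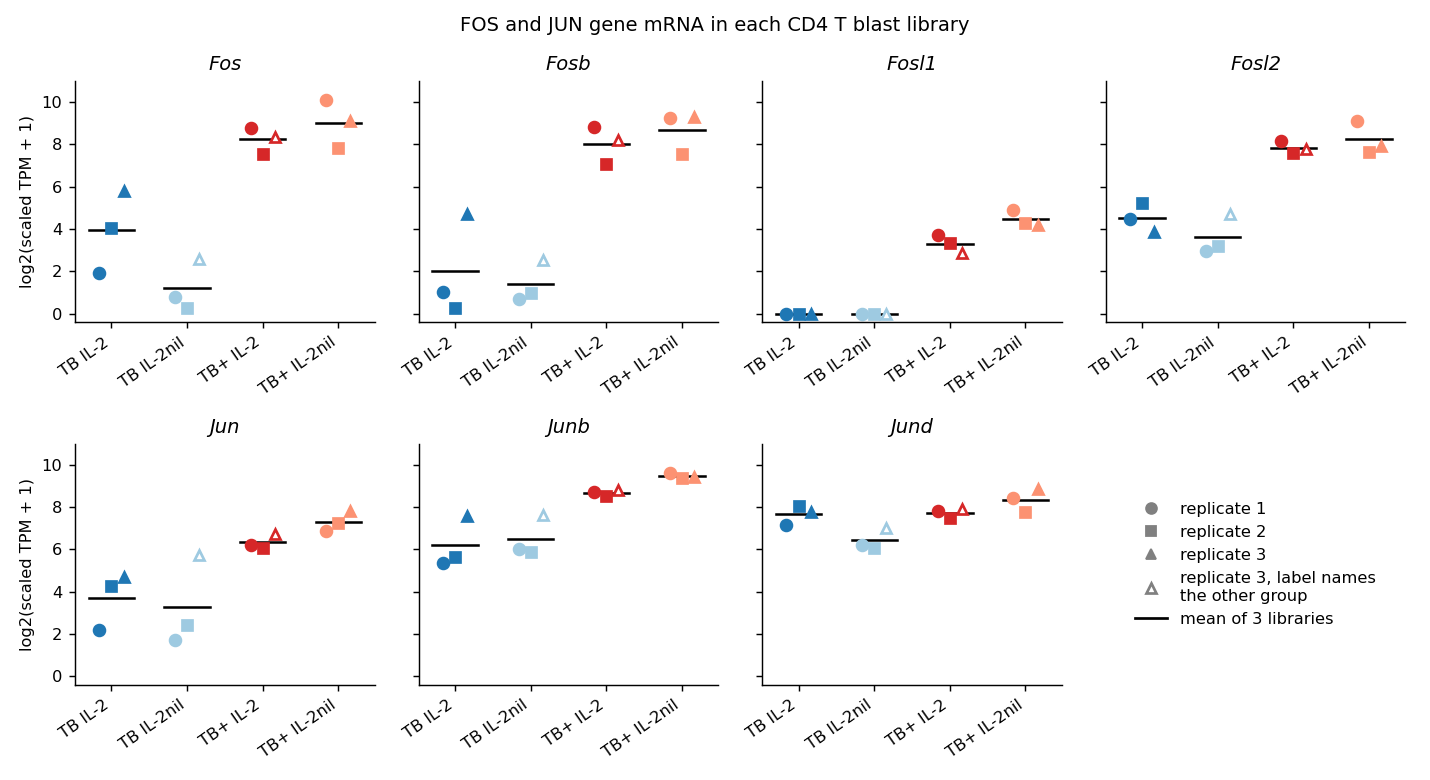
Level of each FOS and JUN gene in the 12 libraries, as log2(scaled TPM + 1) on the vertical axis, by group on the horizontal axis. Shapes are replicates, open triangles are the 2 libraries whose labels name the other group, and bars are means of 3 libraries. The PMA/I groups sit above the unstimulated groups in every panel except *Jund*, where TB IL-2 and TB+ IL-2 overlap.

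In unstimulated T blast cells, the JUN genes were led by *Jund* with IL-2 and by *Jund* and *Junb* at similar levels without it, and the FOS genes were low. *Jund* was at 141, 267 and 216 TPM in TB IL-2 (replicates 1, 2 and 3) and *Junb*, known to pair with BATF in T cells, at 40.1, 49.6 and 189 TPM. *Jund* was the higher of the pair in all 3 libraries, although the ranges overlap. In TB IL-2nil, *Jund* was at 72.3, 66.6 and 128 TPM and *Junb* at 63.1, 58.5 and 198 TPM, so *Junb* was the higher in 1 of 3. *Jun* was at 3.56, 18 and 25.1 TPM in TB IL-2 and at 2.26, 4.32 and 52.7 TPM in TB IL-2nil, wholly below the *Jund* range in both groups.

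*Fosl2*, whose protein lacks the strong activation domain of FOS and FOSB, was at 21.5, 37 and 13.5 TPM with IL-2. *Fos* varied more in these 3 libraries, at 2.84, 15.5 and 55.3 TPM, and *Fosb* was at 1.01, 0.187 and 25.4 TPM. Without IL-2, *Fosl2* was at 6.87, 8.17 and 25 TPM, *Fos* at 0.736, 0.194 and 4.93 TPM and *Fosb* at 0.606, 0.967 and 4.8 TPM. *Fosl2* was thus above both *Fos* and *Fosb* in all 3 TB IL-2nil libraries. *Fosl1*, which encodes FRA-1, was listed at 0 in all 6 unstimulated libraries. Replicate 3 held the highest *Fos*, *Fosb*, *Jun* and *Junb* of both unstimulated groups, and the highest *Egr1*, *Dusp1* and *Zfp36* as well. *Egr1*, another immediate-early gene, was there at 29.6 and 9.38 TPM, with 1.56 to 4.21 TPM in the other 4 libraries.

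The first comparison asks how the AP-1 genes differ once IL-2 is taken away. *Jund* fell 2.34-fold, from 208 ± 63.5 TPM in TB IL-2 to 88.8 ± 33.8 TPM in TB IL-2nil (SD, n = 3), and *Fos* fell 12.6-fold, from 24.6 ± 27.4 to 1.95 ± 2.59 TPM (SD, n = 3). The groups did not overlap for *Jund* and overlapped for *Fos*. On the log2 scale, *Jund* was 1.23 higher with IL-2 (SE 0.34, adjusted P = 0.0139 in limma with Benjamini-Hochberg adjustment) and *Fos* 2.73 higher (SE 0.92, adjusted P = 0.0348). These 2 of 7 genes stand against 17.3% of all genes tested that were higher with IL-2, so a share of this size is near the background. Only *Fos* also exceeded 3-fold, which 4.69% of all genes did in this direction. *Jund* was the 1 member without overlap, against 22.8% of all genes.

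For the other genes the intervals were wide. The difference was 0.90 for *Fosl2* (95% confidence interval -0.21 to 2.02, adjusted P = 0.177), 0.59 for *Fosb* (-1.64 to 2.82, adjusted P = 0.673), 0.43 for *Jun* (-1.57 to 2.43, adjusted P = 0.741) and -0.31 for *Junb* (-1.53 to 0.90, adjusted P = 0.681). With the 2 libraries as labelled, *Jund* differed by 0.93 (adjusted P = 0.51) and *Fos* by 0.79 (adjusted P = 0.926). With both left out, *Jund* differed by 1.52 (adjusted P = 0.0124), *Fos* by 3.41 (adjusted P = 0.0333) and *Fosl2* by 1.44 (adjusted P = 0.0498). The median of all genes was -0.13 in this comparison.

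The *Fos* call was lost without TB IL-2 replicate 2 (2.67, adjusted P = 0.0881), TB IL-2 replicate 3 (1.79, adjusted P = 0.138), TB IL-2nil replicate 1 (2.52, adjusted P = 0.0961) or TB IL-2nil replicate 2 (2.25, adjusted P = 0.118). The *Jund* call was lost without TB IL-2 replicate 2 (1.03, adjusted P = 0.0594) or TB IL-2nil replicate 2 (1.06, adjusted P = 0.0545), and with scaling to 21 housekeeping genes (0.60, adjusted P = 0.142). *Fosl2* passed once the library labelled TB+ IL-2 replicate 3 was left out (1.44, adjusted P = 0.0354). All 3 B cell markers were lower with IL-2 in this comparison, and their part in the *Fos* and *Jund* differences was not tested.

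In cells kept in IL-2, PMA/I for 2 h raised 6 of the 7 genes, against 11.8% of all genes that were higher, and *Jund* was the exception. *Fos* reached 442, 188 and 331 TPM and *Fosb* 451, 132 and 299 TPM, both above every unstimulated library. *Fosl2* reached 287, 193 and 219 TPM, *Junb* 417, 363 and 443 TPM and *Jun* 72.4, 66.2 and 105 TPM. *Fosl1*, at 0 before, was at 12.1, 9.04 and 6.27 TPM, the lowest level of the 7. The stimulated and unstimulated groups did not overlap for these 6 genes, as for 16.6% of all genes in this direction. *Jund* stayed within its unstimulated range, at 223, 177 and 240 TPM, with a difference of 0.07 (95% confidence interval -0.66 to 0.81, adjusted P = 0.887).

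Among the genes detected before PMA/I, the log2 differences were largest for *Fosb* at 6.04 (SE 1.02, adjusted P = 0.00118) and *Fos* at 4.31 (SE 0.92, adjusted P = 0.00441). *Fosl2* rose by 3.32 (adjusted P = 0.000666), *Fosl1* by 3.30 (adjusted P = 3.34e-06), *Jun* by 2.62 (adjusted P = 0.0445) and *Junb* by 2.47 (adjusted P = 0.00563). *Fosl1* has no place in this order, since against groups listed at 0 its difference is set by the pseudocount and reached 9.78 with a pseudocount of 0.01. All 6 also exceeded 3-fold, against 3.94% of all genes. In TPM the group means differed 33.2-fold for *Fosb*, 13-fold for *Fos*, 9.71-fold for *Fosl2*, 5.22-fold for *Jun* and 4.39-fold for *Junb*. With both doubtful libraries left out the same 6 genes passed, with adjusted P from 2.67e-05 for *Fosl1* to 0.022 for *Jun*. *Jun* lay close to the threshold, and its call was lost on leaving out any 1 of 9 libraries. The largest adjusted P among these was 0.168, with a difference of 1.85, without TB IL-2 replicate 1. It was 0.0621 without TB IL-2 replicate 2, 0.107 without the library labelled TB IL-2nil replicate 3, 0.0909 without TB+ IL-2 replicate 1 and 0.0886 without TB+ IL-2 replicate 2. The other 4 are libraries of neither group, TB IL-2nil replicate 2 (0.052) and TB+ IL-2nil replicates 1, 2 and 3 (0.0571, 0.0596 and 0.0567). The median of all genes was -0.22, and 2 of 3 B cell markers were lower with PMA/I, whose part in these results was not tested.

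After IL-2 withdrawal, PMA/I raised all 7 genes, *Jund* included, against 20.1% of all genes that were higher. *Fos* reached 1085, 227 and 548 TPM and *Fosb* 608, 189 and 620 TPM. *Fosl2* reached 549, 202 and 244 TPM and *Fosl1* 28.8, 18.2 and 17.3 TPM. Replicate 2 held the lowest *Fos*, *Fosb* and *Fosl2* of the group. Of the JUN genes, *Junb* reached 794, 668 and 698 TPM, *Jun* 117, 152 and 225 TPM and *Jund* 342, 214 and 459 TPM. No gene overlapped with TB IL-2nil, as for 21.8% of all genes in this direction.

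On the same scale, which again sets the size for *Fosl1*, the differences were 7.80 for *Fos* (SE 0.92, adjusted P = 3.57e-05), 7.30 for *Fosb* (SE 1.02, adjusted P = 0.00011), 4.61 for *Fosl2* (SE 0.51, adjusted P = 2.35e-05) and 4.45 for *Fosl1* (SE 0.23, adjusted P = 2.51e-07). They were 4.03 for *Jun* (SE 0.91, adjusted P = 0.0027), 2.98 for *Junb* (SE 0.55, adjusted P = 0.000751) and 1.91 for *Jund* (SE 0.34, adjusted P = 0.00053). All 7 exceeded 3-fold, which 7.78% of all genes did. In TPM the means differed 318-fold for *Fos*, 222-fold for *Fosb* and 3.81-fold for *Jund*. Leaving out any 1 library kept all 7 past the test, and so did leaving out both doubtful libraries (adjusted P up to 0.000936). As labelled, the adjusted P ran from 0.0584 for *Fosl1* to 0.118 for *Fosb*. The median of all genes was -0.38. All 3 B cell markers were lower with PMA/I here, and short non-coding RNAs took 33.0% to 53.2% of the deposited values in TB+ IL-2nil and 21.3% to 37.5% in TB IL-2nil, whose part in the result was not tested.

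**Figure D2:**
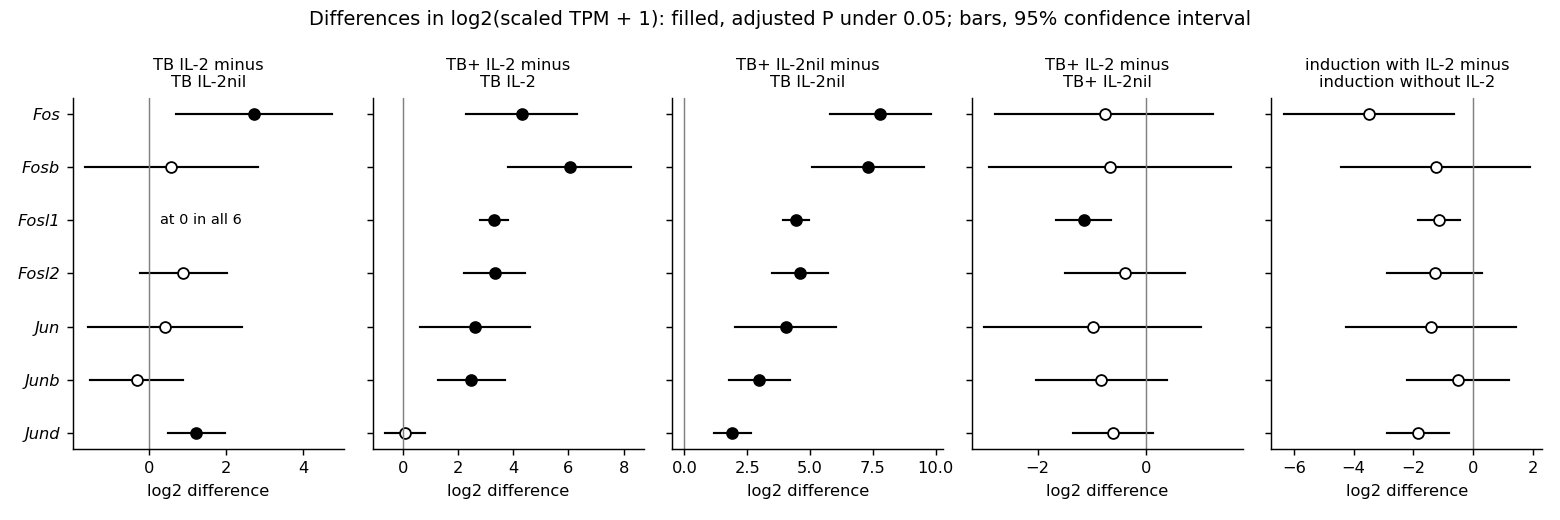
Differences between groups in log2(scaled TPM + 1) for each gene, with 95% confidence intervals as bars; filled points have an adjusted P under 0.05. In the second panel the 6 filled points lie between 2.47 and 6.04 and *Jund* lies at 0.07, and in the third panel all 7 are filled.

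Among stimulated cells, all 7 genes had lower means with IL-2 than after its withdrawal, but *Fosl1* alone passed the test. It was at 9.13 ± 2.91 TPM in TB+ IL-2 and 21.4 ± 6.4 TPM in TB+ IL-2nil (SD, n = 3), without overlap, and differed by -1.15 (SE 0.23, adjusted P = 0.00583). This 1 of 7 stands against 8.4% of all genes that were lower with IL-2. The difference did not exceed 3-fold, as it did for 0.41% of all genes in this direction. *Junb* and *Jun* did not overlap between the groups either, as for 18.3% of all genes in this direction, yet had differences of -0.82 (95% confidence interval -2.03 to 0.39, adjusted P = 0.315) and -0.98 (-2.99 to 1.02, adjusted P = 0.476). The remaining differences were -0.76 for *Fos*, -0.66 for *Fosb*, -0.61 for *Jund* and -0.39 for *Fosl2*, with adjusted P from 0.225 to 0.683.

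*Fosl1* differed by -0.93 with both doubtful libraries left out (adjusted P = 0.0393) and by -2.10 as labelled (adjusted P = 0.288). Without replicate 3 of every group it differed by -1.06 (adjusted P = 0.0711), and without scaling after TPM by -0.77 (adjusted P = 0.0607). Short non-coding RNAs took 33.0% to 53.2% of the deposited values in TB+ IL-2nil and 22.2% to 27.5% in TB+ IL-2, and all 3 B cell markers were lower in TB+ IL-2. Their part in this result was not tested. The median of all genes was -0.04.

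Whether induction itself differed with IL-2 is asked by the interaction, the induction with IL-2 minus that without. It was negative for all 7 genes, where the median of all genes was 0.16. The 7 genes vary together over the libraries (Pearson correlations of 0.666 to 0.960), so these are not 7 separate results. In the test, 0 of 7 passed (limma, adjusted P under 0.05), against 4.23% of all genes in either direction. An unadjusted P under 0.05 was met by 3 of the 7, and by 2875 of all 12442 genes. The interaction was -1.84 for *Jund* (SE 0.47, adjusted P = 0.0543), -1.15 for *Fosl1* (SE 0.32, adjusted P = 0.0711) and -3.49 for *Fos* (SE 1.3, adjusted P = 0.14). With the replicate number as a block, *Jund* (adjusted P = 0.0237) and *Fosl1* (adjusted P = 0.0296) passed, so 2 genes passed in place of 0. Calls over all 12442 genes rose as well, from 195 higher and 331 lower to 760 higher and 718 lower. *Fosl1* is listed at 0 in all 6 unstimulated libraries, so its interaction is the same number as its difference between the stimulated groups and no separate result. The other differences ran from -1.41 for *Jun* to -0.51 for *Junb*, with adjusted P from 0.306 to 0.732. With both doubtful libraries left out, the values were -2.22 for *Jund* (adjusted P = 0.0872), -0.93 for *Fosl1* (adjusted P = 0.195) and -4.24 for *Fos* (adjusted P = 0.183).

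The single-library values bear on these calls. Without TB IL-2 replicate 1, the interaction of *Fos* was -4.49 (adjusted P = 0.0453) and that of *Jund* -2.09 (adjusted P = 0.0359). Without the library labelled TB+ IL-2 replicate 3, *Jund* was at -2.13 (adjusted P = 0.0458), and without TB+ IL-2nil replicate 3, *Fosl1* was at -1.28 (adjusted P = 0.0408). For *Jund*, the levels behind the interaction are 208 and 214 TPM before and after PMA/I with IL-2, and 88.8 and 339 TPM without it.

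*Jund* held a smaller mean share of the JUN mRNA, and *Junb* and *Jun* larger ones, in the stimulated groups. *Jund* made up 68.8% ± 16.2 of the summed TPM of *Jun*, *Junb* and *Jund* in TB IL-2 (SD, n = 3), 45.9% ± 10.5 in TB IL-2nil, 30.3% ± 1.04 in TB+ IL-2 and 27.1% ± 6.24 in TB+ IL-2nil. *Junb* made up 26.8% ± 15.2, 47.8% ± 3.91, 58.2% ± 1.89 and 59.5% ± 7.79 in the same order, and *Jun* 4.39% ± 2.14, 6.31% ± 6.67, 11.5% ± 1.68 and 13.4% ± 3.61 (SD, n = 3). Without IL-2 the *Junb* shares overlapped, at 45.2% to 52.3% before PMA/I and 50.5% to 64.6% after it. *Junb* was the most abundant of all 7 genes in the mean of both stimulated groups, at 408 ± 40.6 and 720 ± 65.9 TPM (SD, n = 3), although its range overlaps with that of *Fos*, next in order. *Jun* was below *Jund* in every library of both stimulated groups and above *Fosl1*.

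Among the FOS genes, *Fosl2* made up 56.4% ± 37.2 of the sum in TB IL-2 and 81.1% ± 8.09 in TB IL-2nil, and 28.9% ± 7.01 and 24.3% ± 7.34 after PMA/I (SD, n = 3). *Fos* and *Fosb* then made up 37.3% ± 1.37 and 32.7% ± 6.53 in TB+ IL-2, and 40.6% ± 6.35 and 33.3% ± 8.84 in TB+ IL-2nil (SD, n = 3). *Fosl1* made up at most 2.85% in any library. The ratio of the FOS sum to the JUN sum was 0.171 ± 0.0425 and 0.0746 ± 0.0163 before PMA/I and 1.21 ± 0.42 and 1.15 ± 0.607 after it (SD, n = 3), each pair given with IL-2 first. The ranges with and without IL-2 were apart before PMA/I, from 0.137 to 0.219 and from 0.0596 to 0.0919, and overlapped after it, from 0.86 to 1.67 and from 0.616 to 1.81. These shares are given as a description and were not tested.

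**Figure D3:**
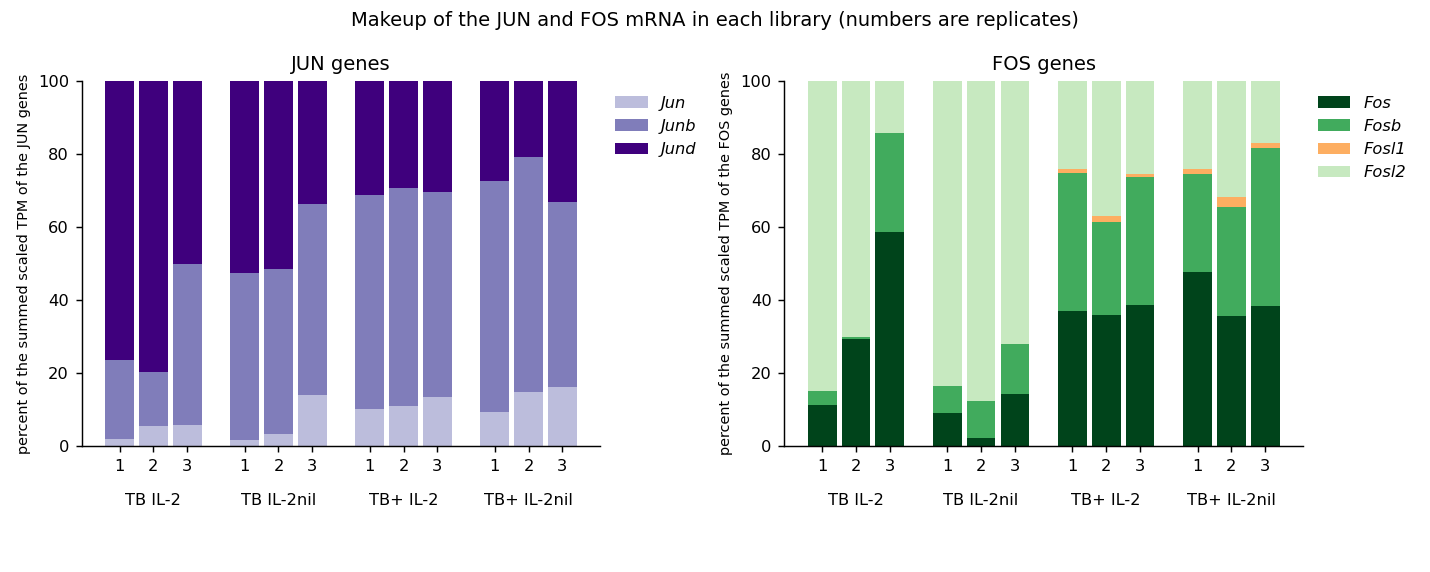
Share of each gene in the summed scaled TPM of the JUN genes (left) and of the FOS genes (right), in percent, for each library; numbers under the bars are replicates. *Jund* takes 50.2% to 79.8% of the JUN sum in TB IL-2 and 20.8% to 33.2% in TB+ IL-2nil, and *Fosl2* takes 72% to 87.6% of the FOS sum in TB IL-2nil.

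A list of 17 other immediate-early and stress genes, which includes the heat-shock genes *Hspa1a*, *Hspa1b* and *Dnajb1*, was read beside the AP-1 genes. Of these, 14 were higher in TB+ IL-2 than in TB IL-2 and 14 in TB+ IL-2nil than in TB IL-2nil, against 11.8% and 20.1% of all genes, with medians of 2.63 and 3.35, against -0.22 and -0.38 over all genes. The nuclear receptor gene *Nr4a3* rose by 9.44 (SE 0.25, adjusted P = 3.3e-09) with IL-2 and by 9.65 (SE 0.25, adjusted P = 1.72e-09) without it. On this scale that was more than any AP-1 gene detected before PMA/I, which leaves out *Fosl1*. *Egr2*, *Egr3* and *Nr4a1* rose by 8.08, 8.84 and 8.42 with IL-2. *Klf2*, a factor of resting T cells, was the 1 gene of the list that fell in each comparison (differences of -2.02 and -3.48). In the interaction only *Myc* of the 17 passed, at -3.73 (SE 0.68, adjusted P = 0.0209). Its levels were 40.2, 170 and 180 TPM in TB IL-2, 14.8, 14.4 and 29.2 TPM in TB IL-2nil, 757, 697 and 574 TPM in TB+ IL-2 and 1665, 1465 and 1680 TPM in TB+ IL-2nil. The *Myc* call was lost with both doubtful libraries left out (adjusted P = 0.08).

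**Figure D4:**
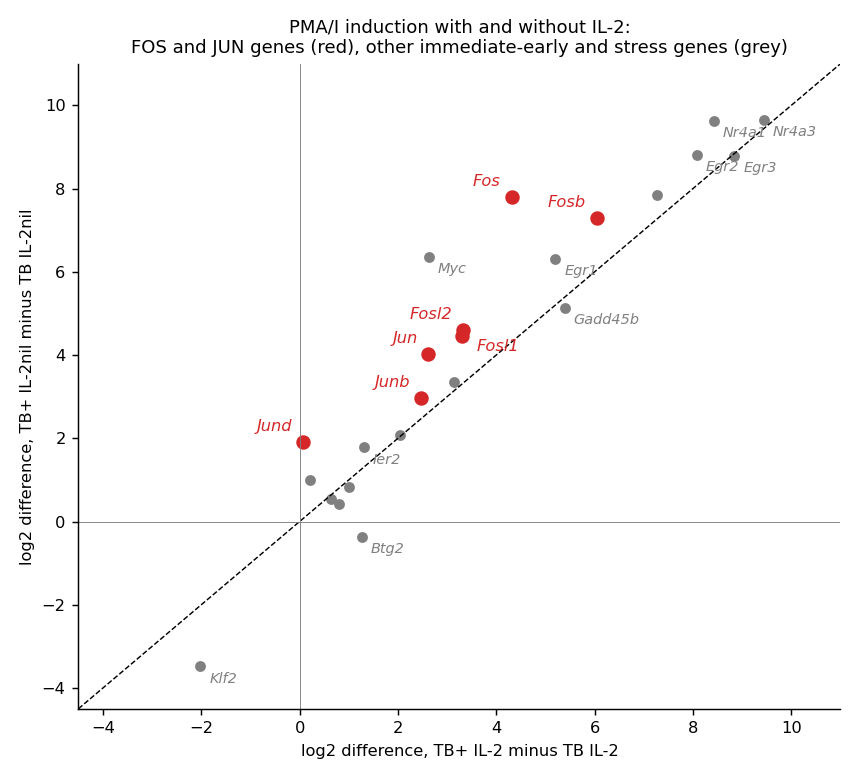
PMA/I induction with IL-2 (horizontal axis) against induction without IL-2 (vertical axis), each as a log2 difference, for the FOS and JUN genes (red) and other immediate-early and stress genes (grey); the dashed line marks equal values. All 7 AP-1 genes lie above the line, *Jund* at 0.07 and 1.91, and *Myc* lies at 2.63 and 6.36.

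Of the genes for other bZIP proteins, which pair or compete with FOS and JUN, 16 of 17 were tested. With PMA/I, 7 were higher with IL-2 and 7 without it, with none and 2 lower, and medians of 0.78 and 0.45. Of all genes, 11.8% were higher and 23.3% lower with PMA/I in IL-2, and 20.1% were higher and 41.1% lower without it, and the counts of the lists that follow stand beside these shares. *Atf3*, whose product pairs with JUN proteins, rose by 6.56 (SE 0.31, adjusted P = 1.92e-07) and by 8.94 (SE 0.31, adjusted P = 1.58e-08), and was the 1 bZIP gene to pass in the interaction, at -2.38 (SE 0.44, adjusted P = 0.0226, and 0.0819 with both doubtful libraries left out). *Maff*, a small MAF gene without an activation domain, rose by 4.11 and 4.86. Before PMA/I, 1 of the 16 was higher with IL-2, *Atf3* at 1.12, and 5 were lower, beside 17.3% and 22.3% of all genes. Among these, *Bach2*, a repressor known to hold T cells in a resting state and to compete for AP-1 sites, differed by -1.75 (SE 0.27, adjusted P = 0.00071), from 17, 14 and 20.4 TPM with IL-2 to 40.1, 70.4 and 74.6 TPM without it.

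Of 13 tested genes for dual-specificity phosphatases, Sprouty and SPRED proteins, 7 were higher with PMA/I in IL-2 and 11 without it, while 1 and 2 were lower. Products of these genes damp the MAP kinase path. The medians were 1.57 and 2.45. *Spry1*, an inhibitor of RAS signalling, was at 5.72, 22.3 and 9.61 TPM in TB IL-2 and 0.789, 0.321 and 0.894 TPM in TB IL-2nil. It rose to 875, 652 and 534 TPM in TB+ IL-2 and 1642, 1160 and 968 TPM in TB+ IL-2nil, with an interaction of -3.71 (SE 0.56, adjusted P = 0.0118, and 0.0693 with both doubtful libraries left out). The ERK phosphatase gene *Dusp6* was higher with IL-2 before PMA/I by 2.16 (SE 0.74, adjusted P = 0.0373).

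Of 19 genes from protein kinase C to the MAP kinases, 2 were higher and 4 lower with PMA/I in IL-2, and 2 were higher and 11 lower without it, where 41.1% of all genes were lower. The higher ones included *Map2k3*, a kinase of p38 (3.23 and 4.65), and the lower ones *Prkcq*, the T cell protein kinase C theta (-1.08 and -1.58). Of 14 factors known to bind FOS and JUN promoters, none was higher and 7 were lower with IL-2 before PMA/I, against 22.3% of all genes that were lower, among them *Mef2d* (-1.46), *Elk3* (-1.11), *Stat5b* (-0.95) and *Creb1* (-0.92), with a median of -0.56, where that of all genes was -0.13. With PMA/I, 3 were higher and 4 lower in IL-2, and 5 higher and 5 lower without it. *Crem* rose by 2.07 and 2.96, and *Mkl1*, a coactivator of serum response factor, fell by 1.96 and by 2.41 on the log2 scale.

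Of 8 regulators of FOS and JUN protein or mRNA, 1 was higher and 3 were lower with PMA/I in each setting. *Zfp36l1*, which promotes decay of mRNAs with AU-rich elements, rose by 4.49 and 4.38. *Men1*, whose product menin binds JUND, differed by -1.70 and -1.75. *Itch*, a ubiquitin ligase of JUN and JUNB, was lower with IL-2 before PMA/I (-0.71, adjusted P = 0.0109). Of 11 cytokine and activation genes with known NFAT and AP-1 sites, 9 rose with PMA/I in IL-2 and 11 without it, with medians of 7.23 and 8.16. *Il2* rose by 11.67 and 10.79. Its levels before PMA/I were 3.12, 0.207 and 0 TPM in TB IL-2 and 4.17, 3.88 and 0.997 TPM in TB IL-2nil. At such low levels the pseudocount bears on both sizes and on their order. After PMA/I, *Il2* was at 7657, 6315 and 3539 TPM in TB+ IL-2 and 8949, 7651 and 4116 TPM in TB+ IL-2nil. In stimulated cells, 2 of the 11 were higher with IL-2 and 0 lower, with a median of 0.58. *Csf2* was among these 2, by 1.97 (SE 0.35, adjusted P = 0.00323). Of all 12442 genes, 1599 were higher with IL-2 there, and no AP-1 gene was. As labelled, the list genes named above did not pass in the comparisons given, other than *Crem* for TB+ IL-2nil against TB IL-2nil (adjusted P = 0.0465). *Mapk3*, counted above among the lower kinase genes but not named, also passed there as labelled (limma, adjusted P = 0.0335). With both doubtful libraries left out, the *Itch* call was lost (adjusted P = 0.0522).

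Over the 12 libraries, the genes most like each AP-1 gene were found among 7226 genes with a mean of at least 10 TPM, by Pearson correlation of log2(TPM + 1). All libraries share the 4 groups, so these are descriptions. Nearest to *Fos* were *Map3k8* (0.980), *Myc* (0.976) and *Srr* (0.973), and nearest to *Fosb* were *Egr1* (0.995), *Maff* (0.984) and *Gadd45b* (0.972). *Junb* was nearest to *Ppp1r15a* (0.985), *Ier2* (0.973) and *Ubald2* (0.972), and *Jun* to *Sfpq* (0.971), *Smndc1* (0.968) and *Cd69* (0.962). *Fosl2* was nearest to *Cops8* (0.982), *Lrrc8d* (0.980) and *Tespa1* (0.978), and *Fosl1* to *Fbxw11* (0.997), *Nfkbib* (0.996) and *Tgif2* (0.995). *Jund* had the lowest values, with *Bhlhe40* (0.926), *Pom121* (0.919) and *Cish* (0.913). *Cish* is a target of STAT5 in T cells.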

How the data were processed

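The authors sequenced RNA of 12 mouse CD4 T blast cultures after removal of rRNA, with paired-end reads. The deposited FPKM values were made by the authors with Trimmomatic 0.32, alignment to mm9 with HISAT2 2.1.0 and StringTie 1.3.3 on RefSeq genes. The methods name TPM, as the plan assumed, but the values of a library add up to between 193815 and 420487. Whether counting used strand is not given in the sources used here. Every library was rescaled to 1000000 TPM, a gene was kept if it exceeded 1 TPM in 1 library or more, and libraries were then brought to a common 75th percentile. The model in limma 3.58.1, run in R 4.3.3, used log2(TPM + 1) of 12442 genes, with the 4 groups as its only term and 8 residual degrees of freedom. Tests were two-sided, and P-values were adjusted by Benjamini-Hochberg over all genes. The fit was tested on simulated data. Summaries and figures used Python 3.11.15 (numpy 2.4.6, pandas 2.3.3, matplotlib 3.10.9).

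Placement of the 2 doubtful libraries rests on 1391 genes that the study tabulated per library. The tabulated values were compared with the rescaled TPM of the libraries after quantile normalization, not with the deposited values. Each tabulated column was then met within 0.1% by 1 library at 99.9% to 100% of the genes, and by the next library at 1.58% or less. So placed, libraries sharing a replicate number in the labels shifted the same way from their group means in 18 of 18 pairs (correlations 0.101 to 0.531), and a fit with that number as a block was added. As labelled, 11 of 18 correlations were over 0.1 (-0.777 to 0.453).

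The genes and lists were chosen with earlier results of these data known. Named are the 7 genes and, per list and comparison, up to 4 genes of the largest change among those that passed. *Egr1*, *Dusp1* and *Zfp36* before PMA/I and *Klf2* with PMA/I lie outside that rule and were named after their values were seen. Some list genes are not reported here and were left out of the counts and sums of their lists. Likeness was listed as the 3 nearest genes. Coordinates are from GENCODE M1, promoters from RefSeq. Alternatives were other scalings, filters and pseudocounts, leaving out each library, the block, and the libraries as labelled. The depth behind a value is known only relative to other libraries, so no counting intervals are given.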

Additional observations from a re-analysis of the deposited data

Results flagged for a closer look

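The difference in PMA/I induction with and without IL-2 passed the test for 2 of the AP-1 genes once the replicate number was a block. It was -1.15 for *Fosl1* (adjusted P = 0.0296), which is the same number as its difference between the stimulated groups because *Fosl1* is listed at 0 in all 6 unstimulated libraries, and -1.84 for *Jund* (adjusted P = 0.0237 in limma with Benjamini-Hochberg adjustment). Induction was smaller with IL-2 than without it in each. Without the block, the adjusted P was 0.0711 and 0.0543. Of all 12442 genes, 760 were higher and 718 lower in this test with the block, and 195 and 331 without it.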

How the results depend on the processing

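Over 34 differences of single AP-1 genes and up to 26 alternatives each, 799 of 877 values kept direction and side of the threshold. Of the rest, 42 lost the call, 15 gained it and 21 turned direction, and why was not tested. The values kept include some fixed in advance in direction, since leaving out a library of neither group does not move a difference between 2 groups. They also include differences that did not pass in either fit, so their number is no measure of stability. As labelled, 0 genes passed in each of the 5 comparisons, and *Fosb* (-1.30) and *Fosl2* (-0.12) between TB IL-2 and TB IL-2nil, and *Jund* (-0.23) between TB+ IL-2 and TB IL-2, turned direction. The replicate block raised the genes past the interaction test from 0 to 2 and changed no other call of an AP-1 gene. With it, 760 of all 12442 genes were higher and 718 lower in the interaction, against 195 and 331 without it. Of the 2 genes past the test between TB IL-2 and TB IL-2nil, 1 was left with no filter, with only the 6 libraries compared, with replicate 3 left out of every group, with housekeeping scaling (21 genes) and with the further limit of 3-fold, and 0 to 3 when 1 library was left out. The call lost was that of *Fos* in the first 3 of these settings (adjusted P = 0.0715, 0.101 and 0.112). There *Fosb* ranged from -0.77 to 1.47, *Jun* from -0.36 to 1.66 and *Junb* from -1.0 to 0.25 on leaving out 1 library; *Fosb* was at -0.20 without replicate 3 of every group, *Jun* at -0.12 with housekeeping scaling and *Junb* at 0.25 with both doubtful libraries left out. *Jund* between TB+ IL-2 and TB IL-2 was at -0.02 with both left out, at -0.0041 without scaling after TPM, at -0.20 with quantile normalization, and at -0.18 to 0.28 on leaving out 1 library. Between TB+ IL-2 and TB+ IL-2nil, 0 genes passed without scaling after TPM, without replicate 3 of every group and with the 3-fold limit. With housekeeping scaling 3 passed (*Fosl1*, *Junb* and *Jund*), all lower with IL-2. Of all 12442 genes, 4546 were then lower and 717 higher, against 1045 and 1599 with the common percentile. The median of all genes was then -0.457, against -0.042. Whether the 3 calls go beyond this shift of all genes was not tested. With only the 6 libraries compared, *Junb* passed (adjusted P = 0.0247) and *Fosl1* did not (adjusted P = 0.0553). *Fosl2* was at 0.01 without scaling and at -0.67 to 0.05 on leaving out 1 library. In the interaction, 1 gene passed with a filter of 1 TPM in 3 libraries, median-of-ratios scaling or an intensity trend (*Jund* each time) and with housekeeping scaling (*Fosl1*), and 0 to 2 when 1 library was left out, with *Fosb* at -2.13 to 0.11 and *Junb* at -1.07 to 0.18. *Jun* with IL-2 and PMA/I also missed the threshold with pseudocounts of 0.1 and 0.01, no filter and quantile normalization. The median of all genes moved by over 0.1 with some scalings, to -0.775 without scaling for TB+ IL-2nil against TB IL-2nil and to -0.627 with housekeeping scaling for TB IL-2 against TB IL-2nil. Leaving out replicate 3 of every group and housekeeping scaling were chosen after seeing the data. Depth limits what a listing at 0, as for *Fosl1* before PMA/I, can show.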
